A study of Mus musculus with 11 samples.

Results

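The genes described here are Adam10, which encodes the membrane metalloprotease ADAM10, 5 of its tetraspanin partners (Tspan5, Tspan14, Tspan15, Tspan17 and Tspan33), the γ-secretase subunit genes Psen2 and Ncstn, and the β-secretase gene Bace1. They were taken by gene symbol from a count table of 55421 mouse genes, where all 9 of 9 were found, and all 9 passed the filter on low counts in each comparison. RNA was sequenced from heart tissue of 11 female C57BL/6J mice, 8 weeks old at surgery and studied on day 3. In the sham group (S1, S2, S3) 3 mice were sham-operated, received the solvent DMSO and gave healthy tissue. In the DMSO group (A105, A127, A128, A129) 4 mice had a myocardial infarction (MI) by permanent ligation of the left anterior descending artery and received DMSO. The A10i group (A116, A117, A119, A120) held 4 mice with the same ligation that received GI254023X, a hydroxamate inhibitor of ADAM10, at 100 mg/kg by osmotic minipump. Tissue of both MI groups came from the infarct with its border zone, so ligation and the region sampled cannot be told apart in a comparison with sham.

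ADAM10 is a sheddase: it cuts membrane proteins close to the cell surface and releases their ectodomains, among them those of Notch receptors, cadherins and membrane-bound chemokines. It leaves the endoplasmic reticulum only together with a tetraspanin of the TspanC8 family, and the partner influences where ADAM10 sits and which substrates it cuts. The membrane stub that remains after shedding can be cut within the membrane by γ-secretase, a complex with a catalytic subunit such as Psen2, nicastrin (Ncstn), an Aph1 subunit and Psenen, whereas Bace1 competes with ADAM10 for the amyloid precursor protein. GI254023X acts on the protease itself, so the counts below measure transcripts and say nothing of enzyme activity.

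Library totals were 21702623 to 29511768 counts. Cardiomyocyte transcripts were abundant in every library, with all 10 markers detected, but they summed to 80321 to 82815 CPM (counts scaled to the TMM-adjusted library size) in sham, 39712 to 57406 in DMSO and 45576 to 62765 in A10i. This sum is dominated by abundant genes such as Myh6, which had a log2 fold change of -1.19 ± 0.16 in DMSO. In that group Tnnt2 (0.10 ± 0.14) and Actn2 (0.19 ± 0.12) did not pass and Nppa rose (2.80 ± 0.43). Of the 10 markers, 4 fell (Myh6, Ryr2, Pln and Myl2) and 1 rose in DMSO against sham, beside 9.6% and 12.9% of all genes. In A10i against sham 3 fell and 1 rose, beside 9.11% and 13.7%. DESeq2 called 8 of the 10 in each of these comparisons, 7 of them lower, against 24.0% of all genes in DMSO and 23.6% in A10i. The median log2 fold change was -0.64 in DMSO and -0.43 in A10i, with 7 and 9 of the 10 below 0. The 9 fibroblast markers summed to 1213 to 1325 CPM in sham, 1993 to 6449 in DMSO and 4942 to 9003 in A10i. After MI these sums were mostly the collagen genes Col1a1, Col1a2 and Col3a1. In DMSO 4 of the 9 rose (those genes and Postn) and in A10i 8 rose, beside 12.9% and 13.7% of all genes. Mean normalized counts in sham, DMSO and A10i were 193, 208 and 261 for Tcf21 and 2038, 2182 and 2942 for Dpt. The 6 monocyte markers summed to 104 to 121, 399 to 1253 and 484 to 1300 CPM in the same order, mostly as Fn1, a matrix gene of other cells too, and the 9 macrophage markers to 255 to 282, 348 to 553 and 463 to 751. The 11 neutrophil markers summed to 1.74 to 3.13, 81.6 to 149 and 15.1 to 55.3 CPM, with Ly6g at 0 in all sham libraries. The 9 endothelial markers summed to 969 to 1021, 878 to 1017 and 976 to 1101 CPM, with Cldn5 higher (0.90 ± 0.18) and Kdr lower (-0.35 ± 0.08) in DMSO at an adjusted p under 0.01. The 7 smooth muscle and pericyte markers summed to 1001 to 1073 CPM in sham, 678 to 826 in DMSO and 872 to 921 in A10i, and in sham the sum was mostly Rgs5. The list did not move as a whole: Rgs5 (-0.95 ± 0.13 in DMSO, -0.68 ± 0.09 in A10i) and Kcnj8 fell in both comparisons with sham, whereas Tagln rose in both and Cnn1 rose in A10i (1.76 ± 0.23). The 5 platelet markers summed to 11.5 to 14.4 CPM in sham, 30.02 to 62.0 in DMSO and 24.8 to 57.7 in A10i, mostly as Pf4. Of 4 tested, 2 rose in DMSO (Pf4 and Ppbp) and 2 in A10i (Pf4 and Itga2b), beside 12.9% and 13.7% of all genes. Gp1ba had mean normalized counts of 5.01 in sham, 4.19 in DMSO and 5.57 in A10i. In such bulk tissue, fewer cells of a type and less RNA per cell cannot be told apart, and the part of these cell types in the results below was not tested.

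Transcript levels of different genes were compared per length, as CPM per kilobase of exon. In sham hearts the order was Ncstn (15.1 ± 0.69, SD, n = 3), Adam10 (11.6 ± 0.47), Bace1 (8.42 ± 0.50), Tspan14 (6.35 ± 0.38), Tspan17 (5.02 ± 0.13), Psen2 (2.70 ± 0.13), Tspan15 (1.29 ± 0.07), Tspan5 (0.997 ± 0.07) and Tspan33 (0.338 ± 0.06), and each neighbouring pair of means was further apart than the sum of the SDs. In DMSO hearts Tspan14 (8.29 ± 1.56, SD, n = 4) no longer separated by that measure from Bace1 (9.66 ± 0.70) or from Tspan17 (7.54 ± 0.70). Nor did Ncstn (16.8 ± 0.96) separate from Adam10 (14.3 ± 3.26) or Tspan5 (1.03 ± 0.24) from Tspan15 (0.797 ± 0.08). In A10i hearts Tspan15 (1.14 ± 0.10, SD, n = 4) and Tspan5 (1.11 ± 0.11) were at nearly the same level, and the means of Adam10 (15.1 ± 2.22) and Ncstn (17.0 ± 0.33) differed by less than the sum of their SDs.

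Of the 9 genes, 2 rose and 1 fell in infarcted DMSO hearts against sham at an adjusted p under 0.01. The risers were Tspan17 and Psen2, at 1.49 and 1.36 times the sham level, and Tspan15 fell to 0.616 times that level. Over all 17117 genes tested in that comparison, 12.9% rose and 9.6% fell, so the members' counts are not far from that background. Scaled by library totals alone, 4 members rose (Tspan17, Psen2, Ncstn and Bace1) and 0 fell, and over all genes 3330 rose and 708 fell in place of 2215 and 1643. By groups that do not overlap, 5 members separated DMSO from sham (Tspan14, Tspan15, Tspan17, Tspan33 and Psen2), against 48.4% of all genes. In A10i hearts against sham 2 members rose, Tspan17 and Tspan14, against 13.7% of 16971 genes, and 0 fell, against 9.11%. With library totals alone, 5 members rose and 0 fell there, and over all genes 3436 rose and 577 fell in place of 2333 and 1546. Groups did not overlap for 7 members in this comparison, against 48.2% of genes. Both comparisons use the same 3 sham libraries and are therefore not independent of each other.

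Adam10 (ENSMUSG00000054693, chr9:70678997-70780229, plus strand, mm10) had 1479, 1504 and 1392 normalized counts in the sham libraries S1 to S3. The DMSO libraries A105, A127, A128 and A129 had 1459, 1823, 1552 and 2370, and the A10i libraries A116, A117, A119 and A120 had 2318, 1788, 1787 and 1720. Every A10i library lay above every sham library, whereas A105 fell within the sham range and A129 and A116 stood above all others. The log2 fold change was 0.30 ± 0.16 (SE, 95% interval -0.06 to 0.65) in DMSO against sham, with an adjusted p of 0.164. Against sham, A10i gave 0.39 ± 0.10 (0.16 to 0.62) with an adjusted p of 0.0142, which misses the threshold. Both values rest in part on a high library: without A129 the DMSO value was 0.13 (adjusted p = 0.283), and without A116 the A10i value was 0.28, with an adjusted p of 0.0017, since the other 3 libraries are close together. The A116 and A129 libraries also had the highest fibroblast (9003 and 6449 CPM), macrophage (751 and 553) and monocyte (1300 and 1253) sums of their groups. Their cardiomyocyte sums were the lowest of their groups (45576 and 39712 CPM), and the part of these cell types was not tested. Between A10i and DMSO, Adam10 differed by 0.09 ± 0.16 on the log2 scale, with an interval of -0.27 to 0.44 and an adjusted p of 0.853.

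**Figure D1:**
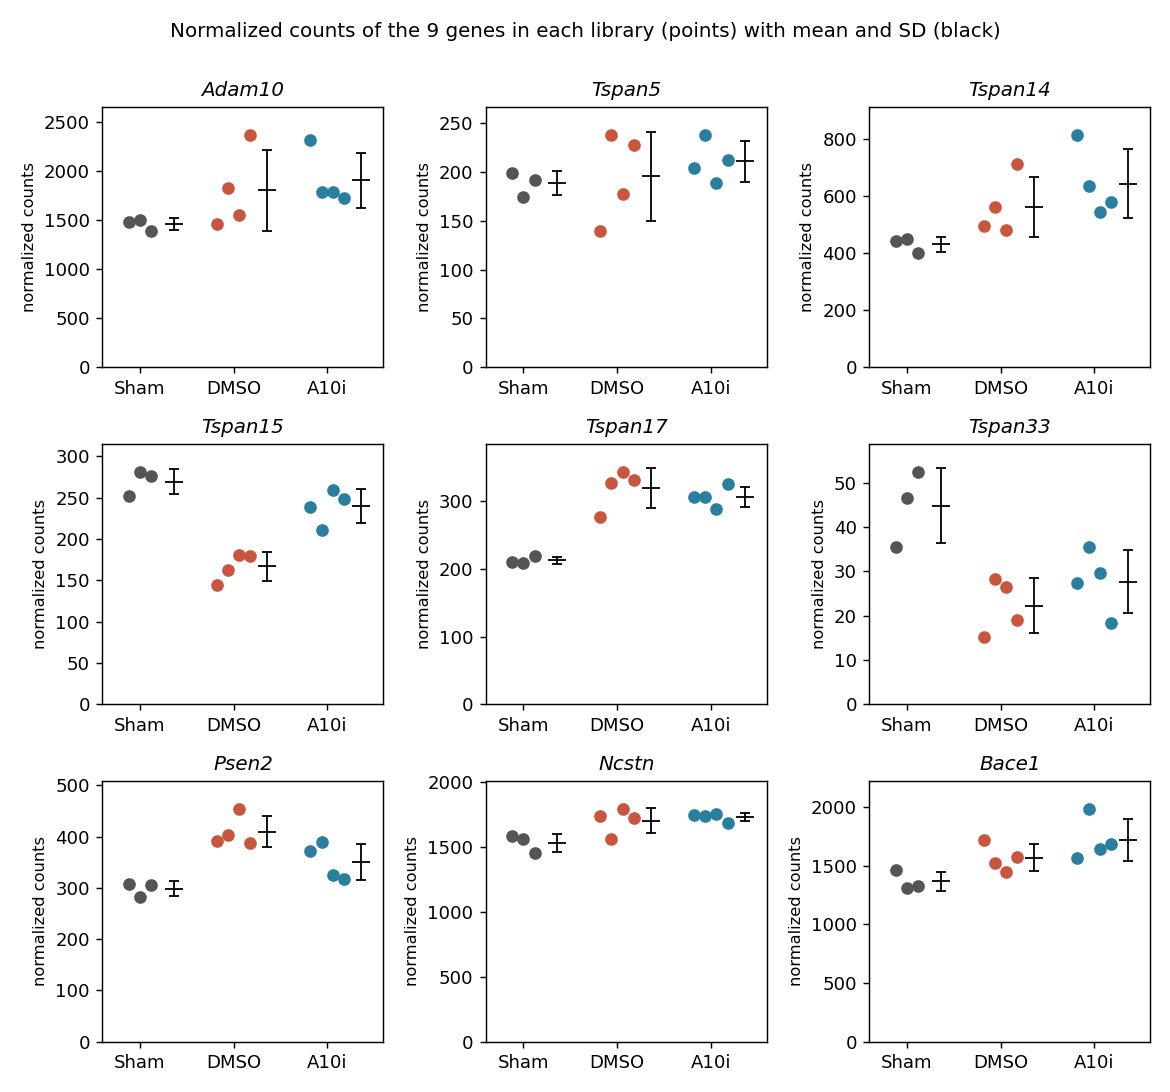
Normalized counts (y axis, from 0) of the 9 genes in each of the 3 groups (x axis), with each library as a point and the mean and SD in black. Tspan15 is low in all 4 DMSO libraries (144 to 181), and 1 DMSO library (2370) and 1 A10i library (2318) stand above the others in Adam10.

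Tspan14, a widely expressed TspanC8 that promotes ADAM10 maturation in endothelial cells, was the most abundant of the 5. It had 442, 449 and 401 normalized counts in sham, 495, 561, 480 and 711 in DMSO, and 815, 633, 545 and 579 in A10i. Both MI groups lay wholly above sham, and A129 and A116 were again the highest of their groups. Tspan14 rose in A10i against sham by 0.58 ± 0.13 on the log2 scale (adjusted p = 0.0072). Against the same sham libraries DMSO gave 0.38 ± 0.14, with an adjusted p of 0.0608. Leaving out A116 lowered the A10i value to 0.45 and kept the call (adjusted p = 0.0012), whereas leaving out S1, S2, S3, A117 or A120 ended it (adjusted p 0.0119 to 0.0383), as did fitting all 11 libraries together (0.58, adjusted p = 0.0162).

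Tspan17 rose in both MI groups. With Tspan5 it belongs to the TspanC8 proteins studied for VE-cadherin and leukocyte passage across endothelium. It had 210, 209 and 219 normalized counts in sham, 276, 327, 343 and 332 in DMSO, and 306, 306, 289 and 325 in A10i. The lowest library after MI, A105, was still well above the highest sham library. The log2 fold change was 0.58 ± 0.11 in DMSO (adjusted p = 0.0032) and 0.53 ± 0.09 in A10i (adjusted p = 0.0017). The call was lost in DMSO without S1, S2 or S3 (adjusted p 0.0164 to 0.0201) and in A10i without S1 or S2 (0.0111 and 0.0116). Without S1, S2 or S3 the DMSO value stayed at 0.56 to 0.60, and the genes called among all tested fell from 3858 to 1525 to 1542.

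Tspan15, the partner through which ADAM10 cuts N-cadherin, went the other way. It had 251, 281 and 276 normalized counts in sham, 144, 162, 181 and 180 in DMSO, and 239, 211, 259 and 248 in A10i. All 4 DMSO libraries lay below all others, and the A10i libraries overlapped with sham. The log2 fold change was -0.70 ± 0.12 in DMSO against sham (adjusted p = 0.0022) and -0.17 ± 0.10 in A10i against sham (interval -0.40 to 0.06, adjusted p = 0.224). The DMSO call was lost without S2 or S3 (adjusted p 0.0153 and 0.0143), with values of -0.67 and -0.69. It was also lost when libraries were scaled by their totals alone (-0.49, adjusted p = 0.0275). That scaling also moved the A10i value to 0.02.

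Tspan15 was also the member with the largest difference between the MI groups. It was 1.44 times as high in A10i as in DMSO, a log2 difference of 0.53 ± 0.12 with an interval of 0.26 to 0.80. Its unadjusted p was 0.0013 and its adjusted p 0.112, so it did not pass in edgeR, and it passed in DESeq2 (adjusted p = 0.0096). In edgeR, 0 of 9 members and 0.0% of 16792 genes passed between A10i and DMSO. At an unadjusted p under 0.05, 1 member (Tspan15) stood against 13.8% of all genes, in DESeq2 1 member against 1.32% of 17539 genes, and by groups that do not overlap 1 member against 8.18%. The direction was the same without each of the 8 libraries in turn (0.46 to 0.58).

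The other pair of TspanC8 genes changed less or was too low for a firm value. Tspan5, which with Tspan14 supports ADAM10 in Notch signalling, had 175 to 199 normalized counts in sham, 140 to 237 in DMSO and 188 to 238 in A10i, so all groups overlapped. Its log2 fold change was 0.05 ± 0.18 in DMSO and 0.17 ± 0.12 in A10i. Tspan33, known from red blood cell precursors and from ADAM10 at epithelial junctions, had 35.6, 46.5 and 52.4 normalized counts in sham, 15.2, 28.4, 26.6 and 19.0 in DMSO, and 27.3, 35.6, 29.6 and 18.3 in A10i. These rest on only 14 to 51 reads per library. The log2 fold change was -1.01 ± 0.28 in DMSO (adjusted p = 0.0167) and -0.69 ± 0.26 in A10i (adjusted p = 0.0579), and neither passed. The remaining family member, Tspan10, had at most 2 reads in any library and was not tested. Among the members, 6 had an unadjusted p under 0.05 in DMSO against sham, beside 49.3% of all genes, and 7 in A10i against sham, beside 48.3%. DESeq2 called 3 members in the former, against 24.0% of genes, and 4 in the latter, against 23.6%: Adam10 (adjusted p = 0.0058) and Bace1 (0.0056) beside Tspan14 and Tspan17.

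**Figure D2:**
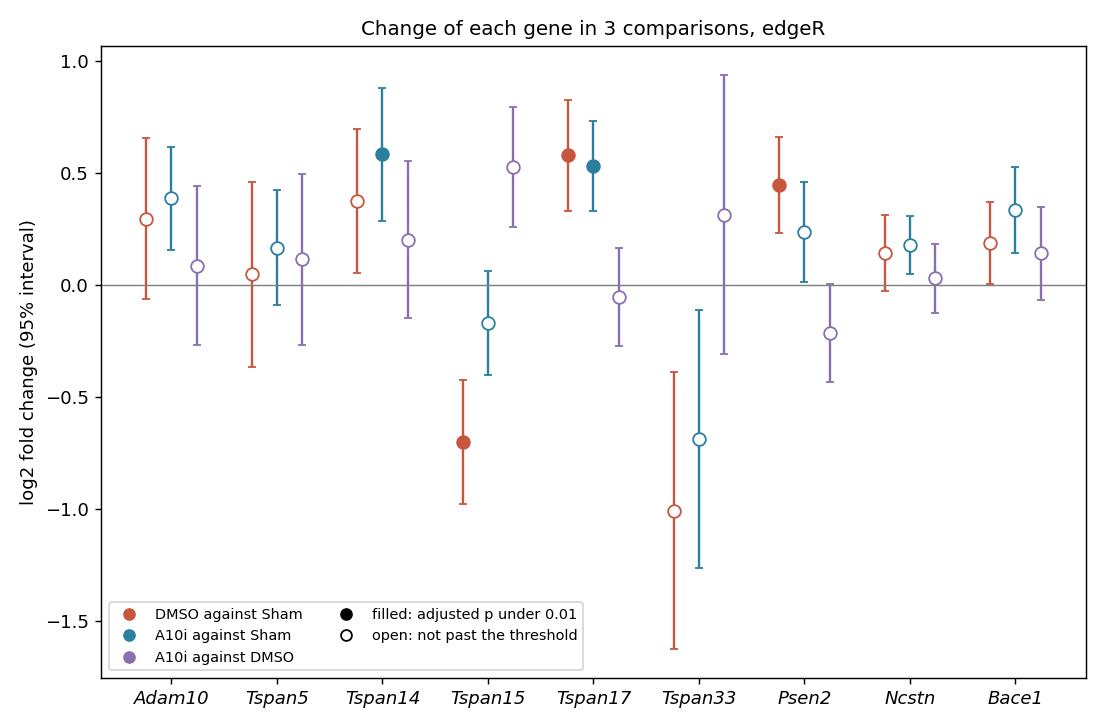
Log2 fold change (y axis) with its 95% interval for each of the 9 genes (x axis) in 3 comparisons, edgeR. Filled points passed an adjusted p of 0.01: Tspan17 in both comparisons with sham, Tspan15 (-0.70) and Psen2 (0.45) in DMSO, Tspan14 (0.58) in A10i, and none between A10i and DMSO.

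Since ADAM10 pairs with 1 TspanC8 protein at a time, the make-up of the TspanC8 transcripts was described as well. The sum reached 14.0 ± 0.18 CPM per kb in the 3 sham libraries (SD), 17.8 ± 2.16 in the 4 DMSO and 19.2 ± 1.82 in the 4 A10i libraries, and both MI groups lay above sham. Tspan14 made up 45.3% ± 2.17 of that sum in sham, 46.3% ± 4.15 in DMSO and 49.1% ± 4.45 in A10i, with overlapping groups. Tspan17 took 35.8% ± 1.39, 42.5% ± 3.65 and 37.9% ± 3.29, and its DMSO libraries (38.1% to 47.1%) lay above sham (34.7% to 37.4%). Tspan15 took 8.55% to 9.52% in sham, 4.19% to 5.03% in DMSO and 5.26% to 7.15% in A10i, so no pair of groups overlapped. Tspan33 took 1.91% to 2.85% in sham, 0.696% to 1.17% in DMSO and 0.737% to 1.40% in A10i, and Tspan5 7.11% ± 0.53, 5.76% ± 0.87 and 5.83% ± 0.67. Shares within a sum depend on each other, so a lower share of Tspan15 is in part the higher level of Tspan14 and Tspan17. They also depend on the division by length: without it the difference of DMSO from sham was 6.72 in place of 1.02 percentage points for Tspan14, -10.2 in place of -4.69 for Tspan15 and -2.14 in place of -1.47 for Tspan33. The Tspan14 difference turned its sign without A129 (-0.58) or S3 (-0.23).

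**Figure D3:**
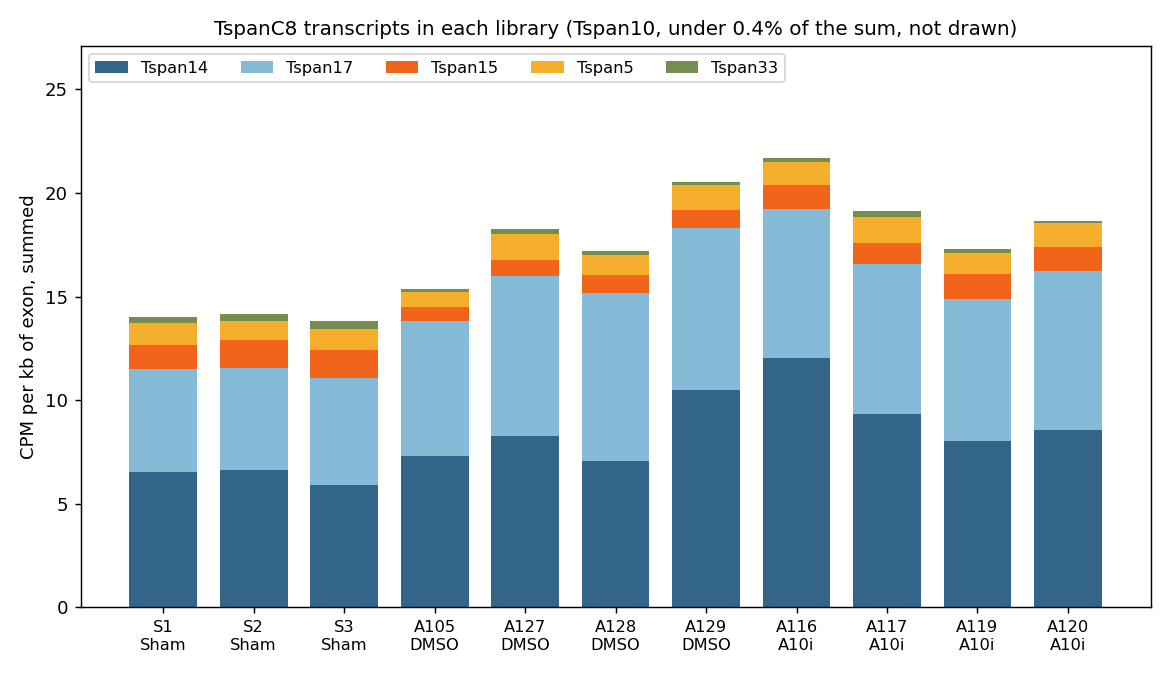
Summed transcript level of the TspanC8 genes (y axis, CPM per kb of exon) in each library (x axis), coloured by gene. The sum is 13.8 to 14.2 in sham and 15.4 to 21.7 after MI, mostly Tspan14 and Tspan17, and the Tspan15 part is thinnest in the DMSO libraries.

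The ratio of Tspan17 to Tspan15, chosen after the values were seen, came to 3.91 ± 0.23 in sham (SD, n = 3), with 9.47 ± 0.35 for DMSO and 6.37 ± 0.68 for A10i (n = 4 each). Its libraries ran from 3.67 to 4.13, from 9.11 to 9.96 and from 5.50 to 7.15, with no overlap between any groups, and A105 did not stand apart in it. The ratio of Adam10 to the summed TspanC8 level came to 0.827 ± 0.02 in sham, with 0.797 ± 0.09 for DMSO and 0.787 ± 0.06 for A10i, and all groups overlapped. Without division by length the log2 ratio in DMSO differed from sham by 0.15 in place of -0.06. The A10i difference from sham also turned its sign. The ratio of Adam10 to Adam17, the gene of a related sheddase, was 1.73 ± 0.05, 2.16 ± 0.26 and 2.06 ± 0.16, and both MI groups lay above sham.

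Adam10 and Tspan14 followed each other from library to library. Over the 11 libraries, Pearson's r of log2 CPM was 0.947, and 0.206% of 17480 genes had a higher r with Adam10. The 5 highest were Prex1 (0.977), a Rac activator, St6gal1 (0.977), a sialyltransferase, Eri1 (0.976), an exoribonuclease, Cd93 (0.974), a lectin-like receptor of endothelial cells, and Wdr62 (0.974), a centrosome protein. For the other members r was 0.617 for Tspan17, 0.576 for Tspan5, 0.468 for Ncstn, 0.349 for Psen2, 0.347 for Bace1, -0.157 for Tspan15 and -0.371 for Tspan33. These values describe 11 libraries that share 3 groups and hold the pair A116 and A129, and no test was made of them.

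**Figure D4:**
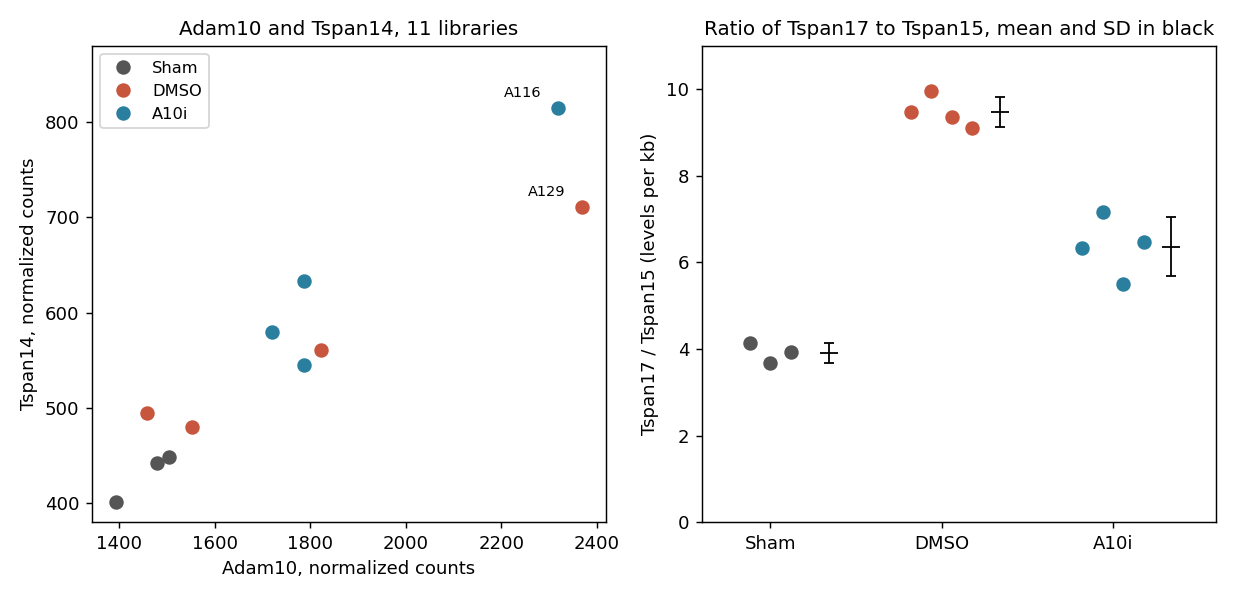
Left, normalized counts of Tspan14 (y axis) against Adam10 (x axis) in 11 libraries, both axes not starting at 0, with A116 and A129 at the upper right. Right, the ratio of Tspan17 to Tspan15 per library with the mean and SD in black: 3.91 in sham, 9.47 in DMSO and 6.37 in A10i.

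Promoter sequence from RefSeq (GRCm38.p6, the assembly of mm10) was matched by symbol for 8 of the 9 genes. It is shown for the genes whose transcripts moved together (Adam10 and Tspan14) and for the pair that moved apart (Tspan17 and Tspan15). Each line gives 217 bases, from 250 to 34 bases before the RefSeq start, 5′ to 3′ on the strand of the gene, and none of them lies within the gene as the count table bounds it. For Tspan14 RefSeq gives 2 starts, and the one shown is the one whose window begins outside that gene. Capitals mark matches on either strand to GGGCGG (GC box), CCAAT (the box bound by NF-Y), ACGTG and GCGTG (cores of hypoxia response elements), TGACTCA (AP-1) and TGGGAA (RBPJ). Neighbouring capitals can belong to overlapping matches.
Adam10, chr9:70678732-70678948, plus strand: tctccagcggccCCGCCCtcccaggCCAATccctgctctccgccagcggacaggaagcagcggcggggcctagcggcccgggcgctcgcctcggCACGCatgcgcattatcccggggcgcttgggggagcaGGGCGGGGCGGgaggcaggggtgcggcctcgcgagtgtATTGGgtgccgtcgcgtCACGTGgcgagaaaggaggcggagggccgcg
Tspan14, chr14:40966930-40967146, minus strand: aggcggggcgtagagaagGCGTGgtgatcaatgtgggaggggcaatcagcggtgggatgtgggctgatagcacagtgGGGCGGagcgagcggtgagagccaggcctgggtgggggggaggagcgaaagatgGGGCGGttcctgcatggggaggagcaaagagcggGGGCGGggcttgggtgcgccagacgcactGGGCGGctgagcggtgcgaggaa
Tspan17, chr13:54789155-54789371, plus strand: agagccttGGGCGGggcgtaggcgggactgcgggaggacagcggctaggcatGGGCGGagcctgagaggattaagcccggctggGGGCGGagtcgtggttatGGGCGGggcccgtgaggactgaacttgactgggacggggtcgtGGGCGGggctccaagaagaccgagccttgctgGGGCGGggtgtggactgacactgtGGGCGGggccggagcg
Tspan15, chr10:62231252-62231468, minus strand: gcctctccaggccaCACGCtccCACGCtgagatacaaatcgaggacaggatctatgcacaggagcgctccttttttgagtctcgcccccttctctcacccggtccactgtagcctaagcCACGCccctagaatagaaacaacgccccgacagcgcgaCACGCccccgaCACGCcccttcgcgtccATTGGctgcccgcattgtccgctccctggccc

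All 4 stretches were rich in G and C, at 75.1% for Adam10, 68.2% for Tspan14, 70.5% for Tspan17 and 62.7% for Tspan15, against a median of 52.1% over 32851 promoter windows cut the same way. GGGCGG occurred 3 times before Adam10, 4 times before Tspan14, 7 times before Tspan17 and not before Tspan15, and 28.0% of all windows hold it. CCAAT occurred 2 times before Adam10 and 1 time before Tspan15, against 30.6% of windows. GCGTG occurred 5 times before Tspan15, 1 time each before Adam10 and Tspan14 and not before Tspan17, against 24.7% of windows, and ACGTG was found only before Adam10, as 2 overlapping matches on opposite strands, against 14.2%. Neither TGACTCA (3.95% of windows) nor TGGGAA (19.2%) was found in these 4 stretches. A match is a description of letters and does not show that a factor binds there.

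Of the γ-secretase genes described here, Psen2 passed the test and the other 5 did not. Psen2, a catalytic subunit, had 308, 282 and 306 normalized counts in sham, 392, 403, 454 and 388 in DMSO, and 373, 389, 325 and 317 in A10i. Every library after MI lay above sham, and of the A10i libraries A117 reached the DMSO range. It rose in DMSO by 0.45 ± 0.10 on the log2 scale (adjusted p = 0.0056). In A10i the difference from sham was 0.24 ± 0.10 (adjusted p = 0.0853), and from DMSO -0.21 ± 0.10 (interval -0.43 to 0.01, adjusted p = 0.376). The DMSO call was lost without S1, S2, S3 or A127 (adjusted p 0.0115 to 0.0364), with values of 0.40 to 0.46.

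Ncstn, the substrate receptor of the complex, had 1587, 1561 and 1455 normalized counts in sham, 1739, 1567, 1794 and 1724 in DMSO, and 1751, 1741, 1756 and 1683 in A10i. Its log2 fold change was 0.14 ± 0.08 in DMSO (adjusted p = 0.159) and 0.18 ± 0.06 in A10i (adjusted p = 0.0336). Of its exonic bases 195 are shared with Copa on the opposite strand, and whether counting used the strand is not given in the sources used here.

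The remaining subunits did not pass in either comparison with sham. Aph1b had a log2 fold change of -0.37 ± 0.12 in DMSO (adjusted p = 0.0341) and -0.26 ± 0.09 in A10i (adjusted p = 0.0352). The near-identical copy Aph1c had -0.34 ± 0.24 and 0.01 ± 0.22, and reads of this pair may be shared between them. Aph1a, which shares 445 exonic bases with Car14, had -0.23 ± 0.09 and -0.07 ± 0.10, and Psenen, the smallest subunit, 0.30 ± 0.17 and 0.17 ± 0.15. In total 1 of these 6 γ-secretase genes rose and 0 fell in DMSO against sham (12.9% and 9.6% of all genes). In A10i against sham 0 of 6 passed, where 13.7% of all genes rose and 9.11% fell. There 3 of the 6 had an unadjusted p under 0.05 (48.3% of all genes), and DESeq2 called 0 (23.6% of all genes). The median log2 fold change of the 6 genes was -0.04 in DMSO and 0.09 in A10i, beside 0.00211 and -0.00536 over all genes tested.

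Bace1, the β-secretase, had 1460, 1309 and 1331 normalized counts in sham, 1719, 1524, 1450 and 1578 in DMSO, and 1569, 1982, 1640 and 1681 in A10i. All A10i libraries lay above sham, whereas the DMSO library A128 fell below the highest sham library. The log2 fold change was 0.19 ± 0.08 in DMSO (adjusted p = 0.0935) and 0.33 ± 0.09 in A10i (adjusted p = 0.0115), short of the threshold. Without A116 the latter became 0.38, with an adjusted p of 0.0019, and without A117, the highest library, it became 0.26, with an adjusted p of 0.0141. A105 and A117, the highest Bace1 libraries of the infarcted groups, also held the highest sums of 7 erythroid markers, at 3720 and 5021 CPM. The other libraries lay at 594 to 1287 CPM in sham, 234 to 946 in DMSO and 1046 to 1393 in A10i, and the part of these transcripts in the Bace1 values was not tested. Without A105 the DMSO value became 0.13 (adjusted p = 0.210). Bace1 shares 975 exonic bases with Rnf214 and 951 with Gm49338, both on the opposite strand. Its relative Bace2 had -0.10 ± 0.15 and -0.02 ± 0.13.

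Of 8 genes that act on ADAM10, Timp1, Sfrp1 and Dlg1 passed the edgeR test in at least 1 comparison with sham. The list held convertases that remove the ADAM10 prodomain, inhibitors, and proteins that place it at the membrane. Timp1, a secreted metalloprotease inhibitor, had 20.9 to 38.0 normalized counts in sham, 1550 to 4860 in DMSO and 1409 to 3129 in A10i. It rose by 6.63 ± 0.49 in DMSO (adjusted p = 0.0001) and by 6.07 ± 0.41 in A10i (adjusted p = 0.0001). Sfrp1, a secreted Wnt antagonist that also inhibits ADAM10, rose in A10i by 1.53 ± 0.09. In DMSO it gave 1.15 ± 0.29 (adjusted p = 0.0134), with A105 (472 normalized counts) near sham (403 to 431). Dlg1, a scaffold that binds the ADAM10 tail, fell by 0.45 ± 0.07 in DMSO (adjusted p = 0.0014) and by 0.37 ± 0.06 in A10i (adjusted p = 0.0009).

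The other 5 genes of this list did not pass in edgeR. The convertase gene Furin had log2 fold changes of 0.36 ± 0.10 in DMSO (adjusted p = 0.0227, and 0.0067 in DESeq2, which called it) and 0.23 ± 0.08 in A10i. Pcsk7 had -0.12 ± 0.08 and -0.10 ± 0.08. Timp3, the inhibitor with the highest level of the list in sham hearts, had -0.39 ± 0.15 and -0.24 ± 0.12. The junction proteins that bind Tspan33 had small values, 0.20 ± 0.09 and 0.22 ± 0.08 for Pdzd11 and -0.36 ± 0.20 and -0.26 ± 0.17 for Plekha7. In all, 1 of the 8 genes rose and 1 fell in DMSO, beside 12.9% and 9.6% of all genes, and 2 rose and 1 fell in A10i, beside 13.7% and 9.11%. DESeq2 called 4 of the 8 in DMSO, against 24.0% of all genes, with Sfrp1 (adjusted p = 0.0001) and Furin added, and 3 in A10i, against 23.6%.

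Among 22 tested genes for ADAM10 substrates, 8 rose and 0 fell in DMSO, and 11 rose and 0 fell in A10i against sham. Of all genes 12.9% rose and 9.6% fell in the former and 13.7% and 9.11% in the latter. DESeq2 called 9 and 11 of the 22 (24.0% and 23.6% of all genes), also with 0 lower, and 0 lower genes had an unadjusted p under 0.05. The median log2 fold change of the 22 genes was 0.37 in both comparisons, beside 0.00211 and -0.00536 over all genes. Cd44, the hyaluronan receptor, had the smallest adjusted p in DMSO and went from 246 to 287 normalized counts in sham to 1324 to 2160 in DMSO and 858 to 1528 in A10i. Its log2 fold change was 2.59 ± 0.19 in DMSO and 2.06 ± 0.21 in A10i. Met, the receptor of hepatocyte growth factor, rose by 1.39 ± 0.17 and 1.54 ± 0.14, and Alcam, an adhesion molecule, by 1.53 ± 0.26 and 1.13 ± 0.25.

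The substrates with the lowest values did not pass. In DMSO against sham, Cdh5 (VE-cadherin) had -0.22 ± 0.11, Btc (betacellulin) -0.33 ± 0.20 and the Notch ligand gene Dll1 -0.17 ± 0.18. Cdh1 passed in both comparisons, but its sham libraries had 0 to 2.85 normalized counts and no fold is given. Of the 24 genes listed, Kl and Fcer2a were too low to test.

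Of 20 other tetraspanin genes tested, 6 rose and 2 fell in DMSO, and 7 rose and 1 fell in A10i, beside 12.9% and 9.6% of all genes in DMSO and 13.7% and 9.11% in A10i. Cd63, a tetraspanin of lysosomes and exosomes, rose by 1.10 ± 0.09 in DMSO and 1.03 ± 0.09 in A10i. Tspan4 rose by 0.72 ± 0.09 and 0.46 ± 0.10, and Cd53, which is restricted to leukocytes, by 2.26 ± 0.33 and 2.15 ± 0.30. Tspan13 fell by 1.14 ± 0.14 in DMSO and by 0.51 ± 0.11 in A10i. Tspan12, a partner of the Norrin receptor, fell by 0.51 ± 0.09 in DMSO and had -0.27 ± 0.09 in A10i (adjusted p = 0.0421), and Tspan11 had -0.83 ± 0.27 and -0.34 ± 0.26. The median of the 20 genes was 0.21 in DMSO and 0.22 in A10i. Of 6 intramembrane protease and rhomboid genes, 2 rose in DMSO, named after their values were seen: Rhbdf2 (0.41 ± 0.09) and Rhbdf1 (0.37 ± 0.09), inactive rhomboids that escort ADAM17. In A10i against sham 1 of the 6 rose, Rhbdf1 (0.31 ± 0.07), whereas Rhbdf2 had 0.02 ± 0.09 (adjusted p = 0.895), beside the same 12.9% and 13.7% of all genes.

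**Figure D5:**
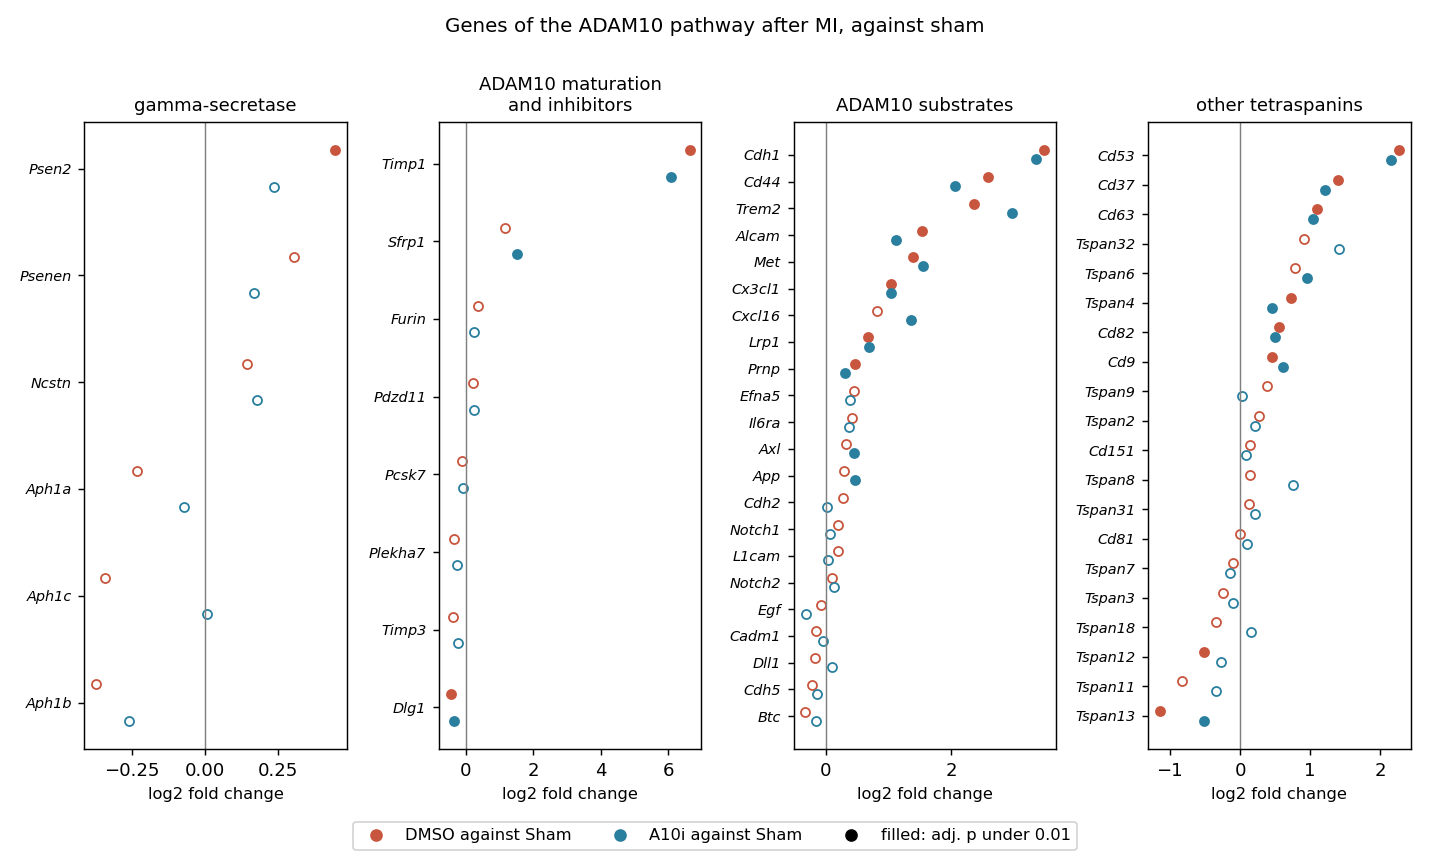
Log2 fold change against sham (x axes, different scales) of genes of 4 lists (y axes), DMSO and A10i, with filled points past an adjusted p of 0.01. Timp1 (6.63 and 6.07) lies far to the right of its list, whereas γ-secretase genes lie between -0.37 and 0.45. Among substrates Cd44 had 2.59 and 2.06, and Cdh1, with 0 to 2.85 normalized counts in sham, lies further to the right.

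Between A10i and DMSO, edgeR called 0 genes in each of these lists. At an unadjusted p under 0.05 there were 1 of 5 TspanC8 genes, 2 of 22 substrates, 3 of 20 other tetraspanins, 1 of 6 intramembrane protease genes and 0 of the γ-secretase, β-secretase and maturation genes, beside 13.8% of all genes, and DESeq2 called Tspan15 alone among them. Tspan13, named after its values were seen, differed by 0.62 ± 0.16 (adjusted p = 0.147, and 0.0249 in DESeq2), no less than Tspan15, with groups that did not overlap (544 to 871 normalized counts in DMSO, 881 to 1297 in A10i). Timp1 differed by -0.57 ± 0.35 and Cd44 by -0.54 ± 0.22. Among members, Tspan14 differed by 0.20 ± 0.16 (interval -0.15 to 0.55), Tspan17 by -0.05 ± 0.10 (-0.27 to 0.17), Tspan5 by 0.11 ± 0.17 (-0.27 to 0.49), Tspan33 by 0.31 ± 0.28 (-0.31 to 0.94), Ncstn by 0.03 ± 0.07 (-0.12 to 0.19) and Bace1 by 0.14 ± 0.09 (-0.06 to 0.35). A rise as large as the 0.53 of Tspan15 lay outside these intervals for Tspan5, Tspan17, Ncstn and Bace1, and outside those of Adam10 (-0.27 to 0.44) and Psen2 (-0.43 to 0.01), whereas the intervals of Tspan33 and Tspan14 include it.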

How the data were processed

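Hearts of 11 mice were sequenced, 1 library each. Per the labels and the study's methods, poly(A)-enriched strand-specific libraries were aligned to mm10 with GSNAP and read pairs were counted per Ensembl gene with featureCounts (2.0.1). The deposited values are these raw counts, not normalized by the authors. The 92 spike-in rows (at most 0.0001942% of a library) were left out, and symbols came from GENCODE M21, which names 55154 of 55421 genes. No pair of replicates agreed within sampling noise.

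Counts were analysed in R 4.3.3 with edgeR 4.0.16 (filterByExpr, TMM, robust quasi-likelihood F-test, two-sided, libraries of the groups compared), with Benjamini-Hochberg adjustment over all genes and a threshold of 0.01. The SE is the log2 fold change divided by the square root of F. For normalized counts, each count was divided by its library's TMM factor and relative size, and correlations used log2 CPM with a prior count of 2. Scripts were tested on simulated counts. DESeq2 1.42.0, library totals, median-of-ratios factors, no filter, a threshold of 0.05, all 11 libraries fitted together and leaving out each library were the alternatives. All members, the TspanC8, secretase and maturation genes, the 3 higher and 3 lower substrates and other tetraspanins with the smallest adjusted p in DMSO, and the 5 genes most correlated with Adam10 were named by rule. Members and lists were chosen with earlier results of these data known. Permutation tests planned for the TspanC8 shares are not given for that reason. An item withheld from this text is not reported here, and list counts are without it.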

Additional observations from a re-analysis of the deposited data

Results flagged for a closer look

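Adam10 in the A10i group was flagged because 1 library stood far from the others of its group. A116 had 2318 normalized counts and the other 3 had 1720 to 1788, so the gap to the nearest was 0.887 of the whole range, above the 95% critical value of Dixon's test. Of 28 groups tested this was the 1 flagged, and chance flags about 1 in 20. A116 also had the highest Tspan14 count (815) of all 11 libraries and the highest summed fibroblast (9003 CPM) and macrophage (751 CPM) markers, and the part of these in the Adam10 value was not tested.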

How the results depend on the processing

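Under the alternatives, 93 of the members' log2 fold changes in DMSO against sham kept their direction and side of the threshold, 10 lost and 2 gained a call and 3 turned. In A10i against sham 90 kept both, 8 lost and 9 gained a call and 1 turned, and between A10i and DMSO 112 kept both, 1 gained a call and 4 turned. Library totals alone raised the median of all genes by 0.208 in DMSO and 0.181 in A10i against sham (-0.0118 between A10i and DMSO). Relative to that median Adam10 was then 0.31 and 0.40 and Tspan15 -0.70 and -0.16. Adam10 passed in A10i against sham with DESeq2 (0.39, adjusted p = 0.0058), library totals (0.58, 0.0085) and no filter (0.38, 0.0011), and its adjusted p over all alternatives was 0.0011 to 0.0813. Among the values that turned their sign was Tspan15 in A10i against sham with library totals (0.019). Tspan5 in DMSO against sham turned without S2 (-0.0059), A127 (-0.053) or A129 (-0.033). It reached up to 0.163 with 1 library left out and was 0.27 with library totals. Between A10i and DMSO, the values that turned were Adam10 without A105 (-0.00022) or A116 (-0.019), Tspan5 without A105 (-0.015, range up to 0.217) and Ncstn without A127 (-0.010, range up to 0.057). None of these passed the threshold.

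Members called in A10i against sham were 4 with DESeq2, 5 with library totals, 4 with no filter, 1 in a fit of all 11 libraries and 5 at a threshold of 0.05, against 2. In the same order, all genes called there were 4841, 4013, 4405, 2722 and 6671, against 3879. Leaving out 1 library gave 0 to 4 members in A10i against sham, 0 to 3 in DMSO against sham (main value 3, with 0 without S2 or S3 and 1 without S1) and 0 to 0 between A10i and DMSO, where DESeq2 gave 1. All genes called were 3858 in DMSO against sham (6832 at 0.05, 1525 to 4051 with 1 library left out), 3879 in A10i against sham (6671 and 1620 to 4365) and 0 between A10i and DMSO (231 with DESeq2, 43 with no filter, 11 in the joint fit, 12 at 0.05 and 0 to 1 with 1 library left out). The lowest counts were those without a sham library (1525 to 1542 in DMSO and 1620 to 1714 in A10i), against 3102 to 4051 and 2788 to 4365 without an infarcted library, and the cause was not tested. With 1 library left out, the Adam10 change ran from 0.13 to 0.37 in DMSO against sham, 0.28 to 0.43 in A10i against sham and -0.02 to 0.25 between A10i and DMSO, and with library totals it was 0.52 in DMSO against sham. The log2 ratio of Adam10 to the TspanC8 sum differed from sham by -0.06 in DMSO and -0.07 in A10i, and by 0.15 and 0.062 when counts were not divided by length. Leaving out 1 library gave -0.13 to -0.01 in DMSO and -0.11 to -0.04 in A10i against sham, and -0.06 to 0.06 between A10i and DMSO. No paired analysis was possible because the groups share no replicate numbers. Depth limits Tspan33 and Tspan10.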
